A study of Mus musculus with 28 samples.

Results

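C/D box small nucleolar RNAs were the subject, namely the features whose Ensembl identifier carries a mouse symbol Snord with a number in GENCODE. The snoRNAs of the Rpl13a introns (Snord32a, Snord33, Snord34 and Snord35a), the U8 gene Snord118 and the imprinted Snord113 and Snord114 arrays of Dlk1-Dio3 were left out by definition. Of 72 Snord symbols in the tables, which hold 30210 features, 67 remained, and 0 features carried a Snord113 or Snord114 symbol. C/D box snoRNAs are short nucleolar RNAs that are cut, in most cases, out of the introns of host genes. A box C near the 5′ end and a box D near the 3′ end bring in the proteins fibrillarin, Nop56, Nop58 and Snu13 (Nhp2l1), and an antisense stretch beside box D or its internal copy pairs with a target RNA, usually ribosomal RNA, to place a 2′-O-methyl group on a ribose. A few members, such as U13 (Snord13), U14 (Snord14) and U22 (Snord22), act in the processing or base modification of the precursor of the small ribosomal subunit RNA.

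The RNA was recovered with antibody against PKR, a kinase activated by double-stranded RNA, from mouse embryonic fibroblasts (MEFs) that carry either PKR with a mutation in every double-stranded RNA-binding motif (RM) or wild-type PKR (WT), added back to the cells. Each kind of cell received 0.1 mM palmitic acid, a saturated fatty acid, or a mock treatment, which gives the groups RM palmitate, RM mock, WT palmitate and WT mock. Datasets A and B each held 3 libraries per group, called biological replicates by the submitters, and dataset C held 1 library per group. Columns of dataset B are marked 2hr, which no source used here explains. No library of input RNA or of a control precipitate was analysed here, so the abundance of a snoRNA in the cells, its association with PKR and its background in the precipitate cannot be told apart. Whether each cell line was 1 clone is not stated, and p-values measure the spread between these libraries.

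Libraries held 254762 to 8036622 counts in dataset A, 2204502 to 7122087 in dataset B and 7462653 to 11658726 in dataset C, and the shallowest was RM palmitate replicate 2 of dataset A. The labelled cell type was checked against its markers, and 10 fibroblast markers summed to 8321 to 22925 CPM (counts made comparable between libraries with TMM factors, set within each dataset) in the libraries of datasets A and B, against 0 to 5.82 CPM for 8 macrophage and lymphocyte markers, 0 to 14.0 CPM for 6 epithelial markers and 0.684 to 8.68 CPM for 5 endothelial markers. The motif mutations of PKR cannot be checked in counts per gene.

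The 67 members are annotated at 64 to 238 bases, with a median of 77. A host gene that contains the member on the same strand was in the tables for 55 members, with 41 distinct hosts, and 12 had none. The sequences below, which are the GENCODE M21 transcripts of the same Ensembl identifiers (sense strand, 5′ to 3′), show 6 members that were called in dataset B and are described below, then Snord49a, Snord12 and Snord83b from among the most counted members, and the Snord1 group, whose members differed in their values. Capitals mark the first TGATGA, the core of box C, and the last CTGA, box D; where only CTGA is in capitals the exact letters TGATGA are not in the sequence.

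Snord45b: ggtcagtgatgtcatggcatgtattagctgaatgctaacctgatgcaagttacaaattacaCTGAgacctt
Snord11: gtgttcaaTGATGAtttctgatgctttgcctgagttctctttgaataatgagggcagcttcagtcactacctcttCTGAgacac
Snord60: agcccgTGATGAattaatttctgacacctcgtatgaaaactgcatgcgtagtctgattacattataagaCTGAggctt
Snord67: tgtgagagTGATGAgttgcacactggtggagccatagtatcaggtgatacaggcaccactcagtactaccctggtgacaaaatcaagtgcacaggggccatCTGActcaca
Snord104: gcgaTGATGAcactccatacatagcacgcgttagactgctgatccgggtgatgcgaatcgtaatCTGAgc
Snord17: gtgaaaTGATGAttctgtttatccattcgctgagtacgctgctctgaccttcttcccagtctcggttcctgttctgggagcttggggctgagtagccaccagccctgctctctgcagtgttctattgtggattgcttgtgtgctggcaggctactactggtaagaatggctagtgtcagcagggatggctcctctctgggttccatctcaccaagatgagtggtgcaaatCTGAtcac
Snord49a: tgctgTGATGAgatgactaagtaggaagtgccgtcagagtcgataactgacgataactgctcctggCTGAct
Snord12: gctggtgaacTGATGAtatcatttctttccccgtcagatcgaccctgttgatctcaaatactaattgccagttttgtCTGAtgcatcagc
Snord83b: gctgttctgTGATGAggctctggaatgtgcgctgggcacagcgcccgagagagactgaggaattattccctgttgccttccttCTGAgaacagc
Snord1a: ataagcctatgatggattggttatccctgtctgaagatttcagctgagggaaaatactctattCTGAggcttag
Snord1b: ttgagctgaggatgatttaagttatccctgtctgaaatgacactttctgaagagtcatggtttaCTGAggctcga
Snord1c: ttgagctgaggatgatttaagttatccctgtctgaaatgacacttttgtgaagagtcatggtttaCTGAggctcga

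TGATGA followed by CTGA was found in 49 of 67 members (73.1%), in 0 of 42 Snora transcripts and in 5.41% of 7654 other transcripts within the members' range of lengths. The search used the sense strand only, and a match describes the letters and not a function. Snord17, the longest member at 238 bases, keeps both boxes at its ends with a long stretch between them. Snord1b and Snord1c were 97.4% identical over their alignment. Gm24253, a further feature with counts, was 100% identical to Snord1c and 97.3% to Snord1b over the matched stretch. Reads could pass between these features, so the separate values of Snord1b and Snord1c are uncertain. Snord1a shared 61.8% with Snord1b and 63.6% with Snord1c. On mm9, as the files give it, Snord45b lies at chr3:153573527-153573597 on the minus strand inside Rabggtb, Snord11 at chr1:59761634-59761717 on the plus strand inside Nop58, Snord60 at chr17:24665421-24665498 on the plus strand opposite Rab26, Snord17 at chr2:144091715-144091952 on the minus strand inside Snx5, and Snord12 at chr2:166890776-166890865 on the plus strand inside Zfas1. Whether strand was used for datasets A and B is not stated. In dataset C, where counts are given for each strand, 1 count of all the members' counts lay on the other strand, in RM mock, while 0.487% to 0.951% of the counts of all features did.

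The members took a far larger share of the libraries of dataset A than of dataset B. Their summed share of counts in dataset A was 8.44%, 2.97% and 10.7% in RM palmitate, 19.4%, 14.7% and 11.1% in RM mock, 15.9%, 9.85% and 4.91% in WT palmitate and 6.19%, 6.15% and 11.1% in WT mock. In dataset B it was 0.815%, 1.13% and 0.830% in RM palmitate, 1.06%, 1.14% and 0.720% in RM mock, 0.669%, 0.802% and 1.06% in WT palmitate and 2.10%, 0.258% and 0.321% in WT mock. WT mock of dataset B thus held both the highest and the lowest shares of that dataset: replicate 1 was above every other library, and replicates 2 and 3 were below them. The group means in dataset A were 7.38% ± 3.98 (RM palmitate), 15.1% ± 4.16 (RM mock), 10.2% ± 5.50 (WT palmitate) and 7.80% ± 2.83 (WT mock), and in dataset B 0.925% ± 0.178, 0.973% ± 0.223, 0.843% ± 0.197 and 0.894% ± 1.05 in the same order (SD, n = 3 each). In dataset A the RM mock libraries lay above the RM palmitate libraries, and those of RM palmitate and WT palmitate overlapped. In dataset B each pair of groups compared overlapped in this summed share. These shares are given as a description, with no test.

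**Figure D1:**
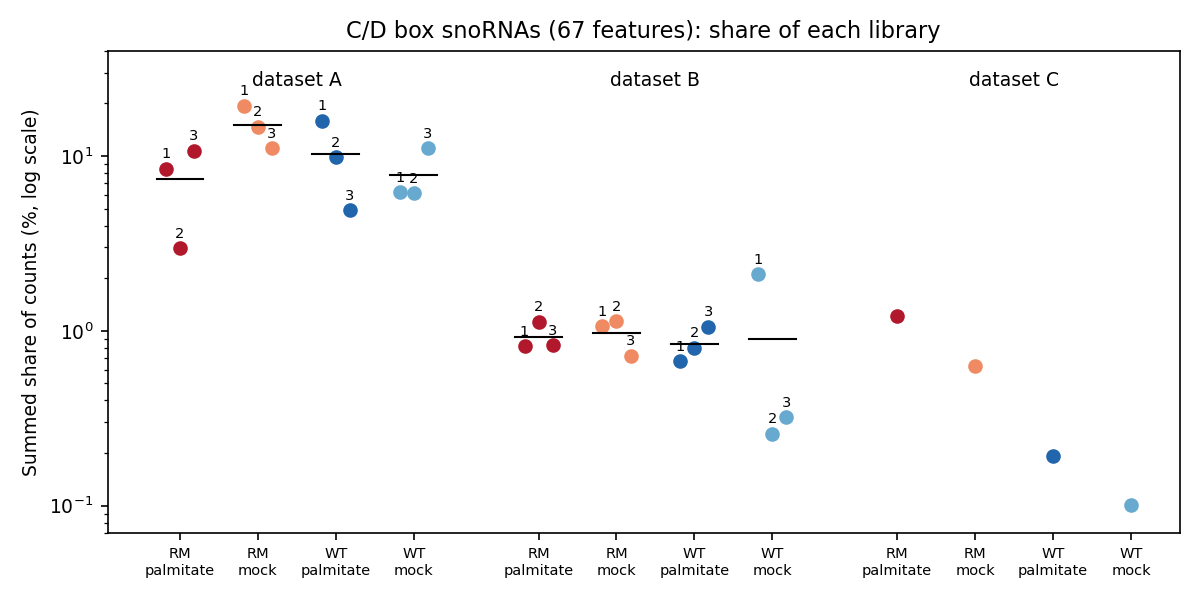
Summed share of the 67 C/D box snoRNAs in each library (percent of counts, log axis), by dataset and group; points are libraries with their replicate number and black lines are means of 3. Shares run from 2.97% to 19.4% in dataset A and from 0.258% to 2.10% in dataset B, where WT mock replicate 1 stands above the rest.

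In dataset A 3 species, Snord49a, Snord12 and Snord55, made up on average more of these shares than all others together. Snord49a, Snord12, Snord55, Snord83b, Snord99, Snord2, Snord110, Snord4a, Snord66 and Snord47 had the highest mean shares over the 24 libraries of datasets A and B. Snord49a averaged 2.32% of counts in dataset A and 0.0807% in dataset B, Snord12 averaged 2.19% and 0.107%, and Snord55 averaged 1.62% and 0.0848%. Snord12 is in Zfas1, a noncoding host, and Snord49a has no host feature in the tables. Per length, the order in dataset A began with Snord49a at 337654 CPM per kb, Snord12 at 251783 and Snord55 at 213658, and Snord83b followed at 71008. In dataset B it began with Snord83b at 12967 CPM per kb, Snord12 at 11688, Snord49a at 10915 and Snord55 at 10684; these means include WT mock replicate 1, and neighbours in this order differ by less than the spread between libraries.

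For the 65 members with a mean of at least 1 CPM in dataset B, the mean level in dataset A over that in dataset B, each scaled within its own dataset, had a median ratio of 4.60 and ran from 0.508 to 30.9, with 61 of 65 higher in dataset A. The order of the members was similar in both, with Spearman's rho 0.88 across the 65 members. Members of 100 bases or more (n = 10) had a median ratio of 1.40 (0.508 to 5.14) and shorter ones (n = 55) had 5.48 (0.509 to 30.9). Across members the log2 ratio had r -0.50 and rho -0.43 with length. These members share libraries and depth, so the correlations are descriptions. The reason for the difference between the datasets was not tested.

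In dataset B, C/D box snoRNAs that passed the test in WT palmitate against WT mock were higher in WT palmitate. With edgeR's quasi-likelihood test at an adjusted p below 0.05, 26 of 65 members tested rose in WT palmitate and 0 fell, while 9.43% of all 12466 features rose and 6.12% fell. The median log2 fold change was 0.87 over the members and -0.05 over all features, and 48 of 65 members had a positive value. The 3 libraries of WT palmitate lay above the 3 of WT mock for 29 of 65 members, against 19.6% of all features. Snord45b had 109, 132 and 131 CPM in RM palmitate, 95.5, 84.8 and 88.1 CPM in RM mock, 71.4, 78.8 and 92.7 CPM in WT palmitate, against 21.6, 32.1 and 34.2 CPM in WT mock libraries. Snord45b lies within Rabggtb, which encodes a subunit of Rab geranylgeranyl transferase. WT mock was the lowest group for it with no overlap, and its log2 fold change in WT palmitate was 1.47 ± 0.16 (SE; adjusted p = 4.95e-05, edgeR).

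Snord11 is carried by Nop58, the gene of a core protein of C/D particles. Snord11 had 36.1, 41.5 and 41.3 CPM in RM palmitate, 31.7, 27.2 and 28.8 CPM in RM mock, 23.6, 29.9 and 29.5 CPM in WT palmitate, against 7.56, 11.2 and 13.5 CPM in WT mock libraries. Its log2 fold change was 1.36 ± 0.18 (SE; edgeR adjusted p = 0.000195), and the groups did not overlap. Snord60 had 263, 335 and 415 CPM in RM palmitate, 259, 323 and 254 CPM in RM mock, 179, 192 and 262 CPM in WT palmitate, against 96.5, 70.8 and 82.5 CPM in WT mock libraries. Every WT palmitate library exceeded every WT mock library for Snord60, which has no host in the tables and lies opposite Rab26, and it rose by 1.34 ± 0.19 (SE; edgeR adjusted p = 0.00042). Snord17 had 107, 177 and 141 CPM in RM palmitate, 77.5, 60.0 and 62.8 CPM in RM mock, 67.5, 79.3 and 116 CPM in WT palmitate, against 15.1, 22.6 and 28.9 CPM in WT mock libraries. Snord17, within the sorting nexin gene Snx5, had the largest log2 fold change among the 26, 1.99 ± 0.28 (SE; edgeR adjusted p = 0.00177), and all WT mock libraries lay below all others.

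Snord104 had 374, 563 and 613 CPM in RM palmitate, 376, 399.6 and 289 CPM in RM mock, 327, 285 and 418 CPM in WT palmitate, against 79.3, 115 and 162 CPM in WT mock libraries. Snord104, which has no host in the tables, thus had its lowest values in WT mock, and rose by 1.53 ± 0.27 in WT palmitate (SE; edgeR adjusted p = 0.00342). Snord67 had 9.16, 11.1 and 9.89 CPM in RM palmitate, 5.19, 3.54 and 4.08 CPM in RM mock, 4.63, 5.46 and 5.84 CPM in WT palmitate, against 1.92, 1.67 and 2.17 CPM in WT mock libraries. Snord67 lies in Ckap5, a microtubule regulator gene, is counted at low levels, and rose by 1.45 ± 0.26 (SE; edgeR adjusted p = 0.00184). Snord35b had 4.29, 6.64 and 6.98 CPM in RM palmitate, 5.19, 3.95 and 3.83 CPM in RM mock, 3.67, 9.36 and 7.67 CPM in WT palmitate, against 1.79, 1.22 and 2.17 CPM in WT mock libraries. Snord35b is as weakly counted; WT palmitate lay above WT mock without overlap, and the log2 fold change was 1.96 ± 0.35 (SE; edgeR adjusted p = 0.00209). The other 5 of the 12 with the smallest p were Snord15a in Rps3 (1.35 ± 0.18), Snord92 in Wdr43 (1.504 ± 0.23), Snord14a in Rps13 (1.26 ± 0.23), Snord85 (1.12 ± 0.22) and Snord7 (1.05 ± 0.21), given as log2 fold change ± SE, with edgeR adjusted p of 0.000262, 0.00177, 0.00217, 0.00371 and 0.00332 in that order. Over all 26 the log2 fold changes lay between 0.97 and 1.99.

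**Figure D2:**
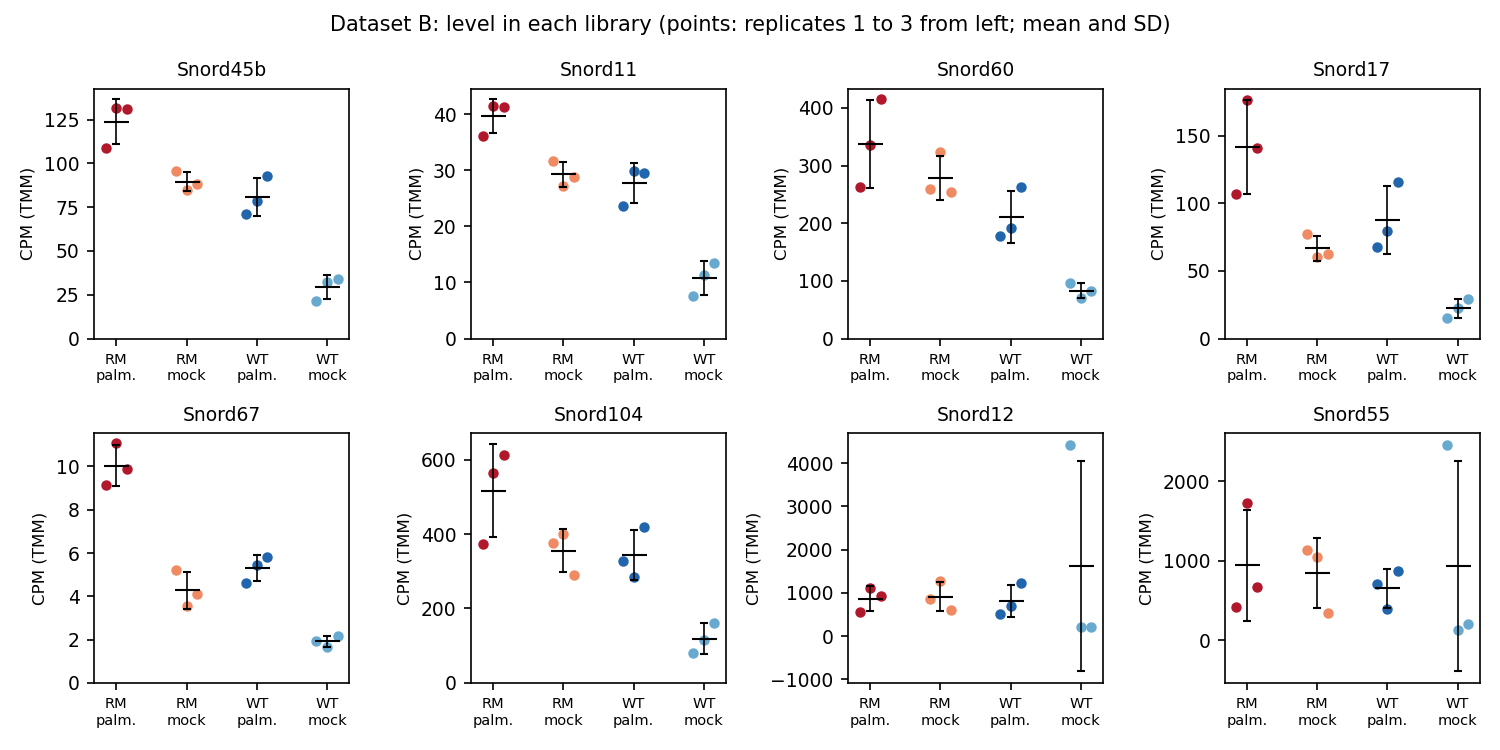
Level (CPM, linear axes) of 8 C/D box snoRNAs in each library of dataset B, by group, with mean and SD (n = 3). In 6 panels WT mock lies below the other groups; in the panels of Snord12 and Snord55 WT mock replicate 1, at 4426 and 2462 CPM, lies above all other libraries.

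The number of members that passed moved with single libraries, and 1 of them stood apart. WT mock replicate 1 of dataset B exceeded the other WT mock libraries for 53 of 65 members, and by at least 5-fold over their mean for 19 members, against 175 of all 12466 features, these 19 included. Its ratio to that mean ran from 0.574 to 21.0 with a median of 2.40, and over all features the median log2 ratio was -0.01. Snord12 had 549.7, 1116 and 933 CPM in RM palmitate, 862, 1265 and 601 CPM in RM mock, 515, 703 and 1232 CPM in WT palmitate, against 4426, 207 and 215 CPM in WT mock libraries. Snord49a had 566, 978 and 320.0 CPM in RM palmitate, 712, 1389 and 819 CPM in RM mock, 494, 413 and 1143 CPM in WT palmitate, against 2334, 110.5 and 153 CPM in WT mock libraries. Snord55 had 419, 1734 and 676 CPM in RM palmitate, 1139, 1054 and 345 CPM in RM mock, 703, 391 and 866 CPM in WT palmitate, against 2462, 129 and 209 CPM in WT mock libraries. For these most counted members WT mock thus held the highest library and the lowest ones at the same time. With all libraries their log2 fold changes in WT palmitate were -0.98 ± 1.10, -0.34 ± 1.09 and -0.51 ± 1.10 (SE), with edgeR adjusted p of 0.587, 0.865 and 0.789.

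The same library held 19.3 counts of the members for each count of H/ACA box snoRNAs (Snora), against 2.57 and 2.62 in WT mock replicates 2 and 3 and 2.59 to 3.90 in the other groups of dataset B. In dataset A this ratio was 32.1 to 46.5, apart from 12.7 in RM palmitate replicate 2, the shallowest library. The members in excess in WT mock replicate 1 of dataset B were also those with the higher level in dataset A over dataset B: r was 0.72 and rho 0.70 over 65 members, with that library left out of the dataset B level. Both measures then still contain WT mock replicates 2 and 3, so part of this relation is built in. With the dataset B level taken from the 9 libraries of the other groups, a choice made after seeing the data, r was 0.72 and rho 0.70. The members share these libraries and their depth, so these correlations are descriptions. Snord45b, Snord11, Snord17 and Snord104 were lower in that library than in the other WT mock libraries, and they are among the members with the smallest p. What set this library apart was not tested.

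**Figure D3:**
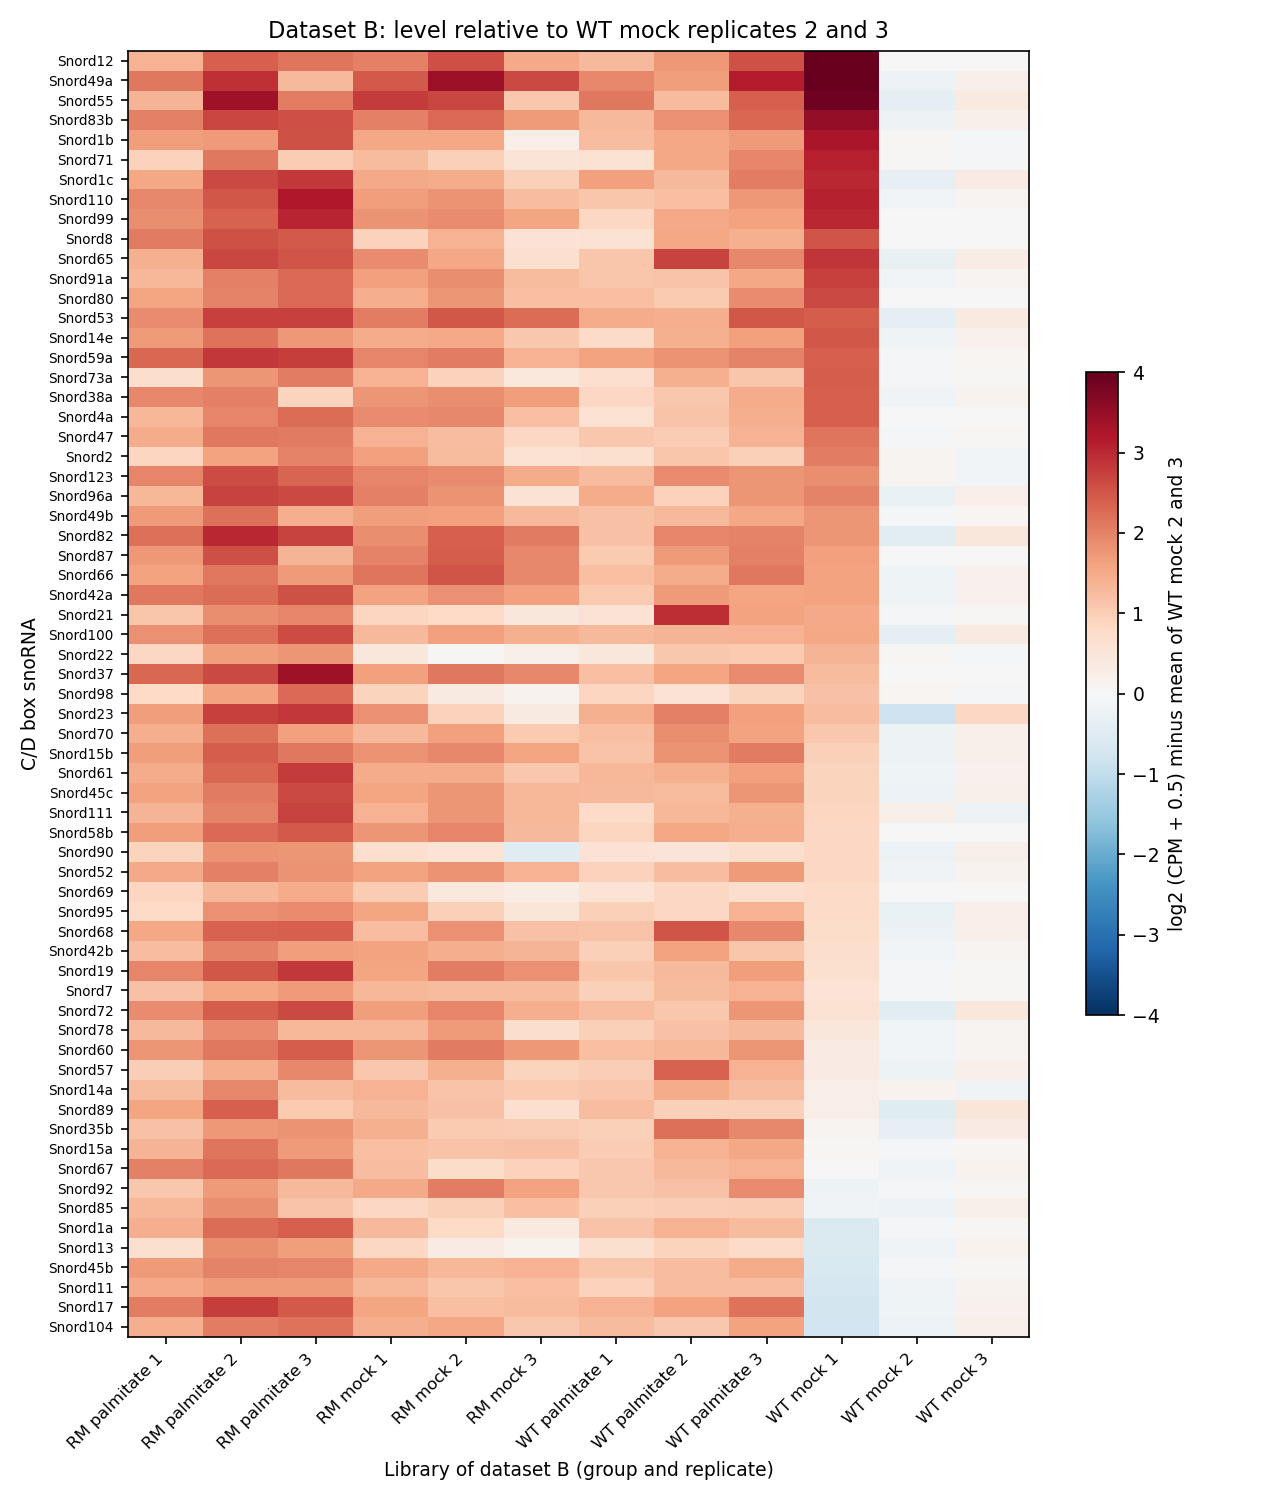
Level of 65 C/D box snoRNAs (rows) in the 12 libraries of dataset B (columns), as log2(CPM + 0.5) minus the mean of WT mock replicates 2 and 3, with colours ending at ±4; rows are ordered by the ratio of WT mock replicate 1 to that mean. Members in WT mock replicate 1 run from strongly above at the top, Snord12, to below at the bottom, Snord104.

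Without WT mock replicate 1, 46 of 65 members rose in WT palmitate and 0 fell, against 7.51% of features that rose and 3.22% that fell, all 65 fold changes were positive, and the median log2 fold change was 1.41. That library was singled out by the values of these same members, and WT mock then rests on replicates 2 and 3. A higher fold change is thus built in for members in excess there, here and wherever it is left out below. Of the 26 members called with all libraries 23 were called again, and Snord13, Snord57 and Snord89 were not. Without WT mock replicate 2, 16 members rose and 0 fell, against 5.77% of features that rose and 2.78% that fell. Without WT palmitate replicate 3, 14 rose and 0 fell, against 5.24% and 2.09%. Snord83b, in the ribosomal protein gene Rpl3, had 1.86 ± 0.30 without that library (SE; edgeR adjusted p = 0.00108) and -0.31 ± 0.88 with it (adjusted p = 0.847). Snord12 had 1.97 ± 0.46 (adjusted p = 0.0251), and Snord49a 2.39 ± 0.65 and Snord55 1.96 ± 0.78, neither past the threshold (adjusted p = 0.0576 and 0.164, edgeR). For Snord45b the log2 fold change moved little, to 1.30 ± 0.14 (adjusted p = 3.69e-05).

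**Figure D4:**
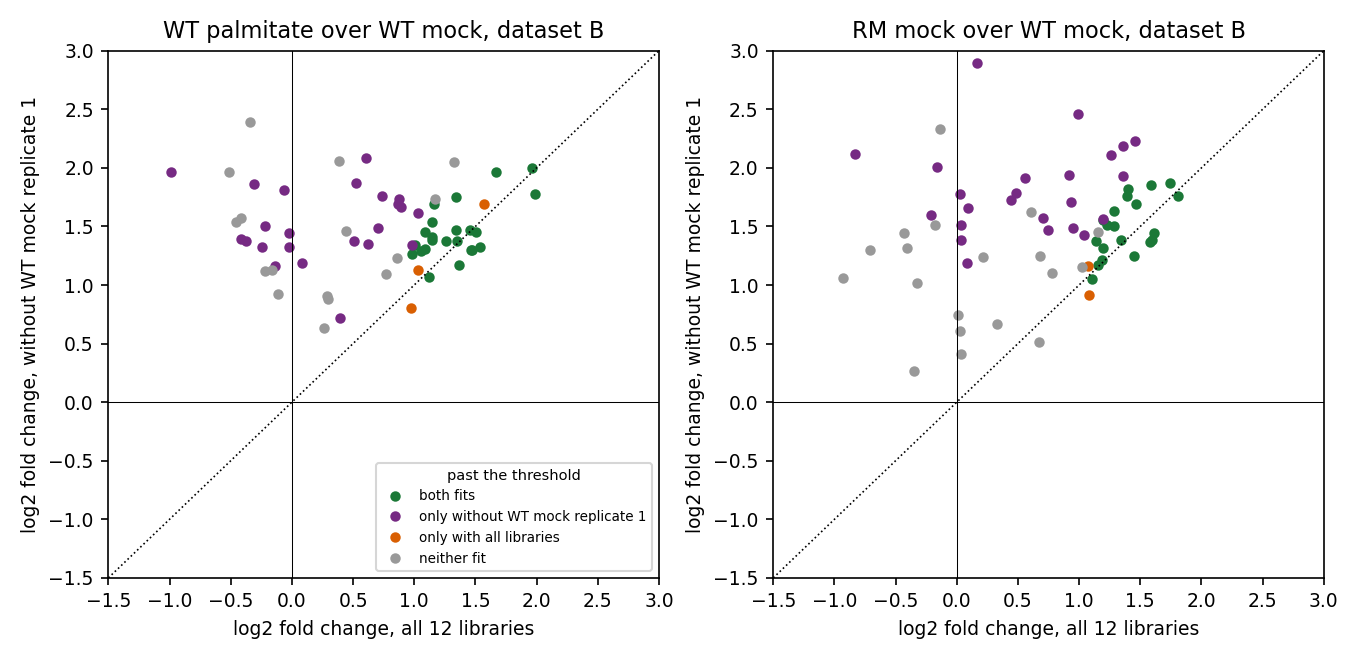
Log2 fold change of 65 C/D box snoRNAs in dataset B fitted with all 12 libraries (x axis) and without WT mock replicate 1 (y axis), for WT palmitate over WT mock (left) and RM mock over WT mock (right); colours give the fits in which the adjusted p was below 0.05 and the dotted line marks equal values. All points lie above zero on the y axis, and those farthest above the dotted line are members in excess in that library.

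RM mock against WT mock in dataset B shares the WT mock libraries with the comparison above, so the values of each are given side by side and not counted as independent. Here 22 of 65 members were higher in RM mock and 0 lower, against 7.88% of all features higher and 6.24% lower, with a median log2 fold change of 0.93 over the members and -0.02 over all features. Groups did not overlap for 30 members, against 18.6% of features. Snord45b was higher by 1.61 ± 0.16 (SE; edgeR adjusted p = 2.78e-05), Snord60 by 1.74 ± 0.19 (7.29e-05), Snord11 by 1.45 ± 0.17 (0.000151) and Snord15a by 1.19 ± 0.18 (0.000777). Snord92 had 105, 152 and 113 CPM in RM mock libraries, against 32.0, 35.3 and 38.1 CPM in WT mock libraries. Snord92, carried with Snord53 by Wdr43, which encodes a ribosome assembly factor, had the largest called difference, 1.81 ± 0.23 (SE; edgeR adjusted p = 0.000818).

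Snord19 had 104, 144 and 122 CPM in RM mock libraries, against 53.9, 33.0 and 35.4 CPM in WT mock libraries. Snord42b had 59.7, 54.1 and 50.3 CPM in RM mock libraries, against 31.3, 17.6 and 21.0 CPM in WT mock libraries. For both, all RM mock libraries exceeded all WT mock libraries; Snord19, in the nucleostemin gene Gnl3, was higher by 1.59 ± 0.26 and Snord42b, in the ribosomal protein gene Rpl23a, by 1.23 ± 0.24 (SE; edgeR adjusted p = 0.00359 and 0.00595). The others among the 12 with the smallest p were Snord7, Snord14a, Snord104, Snord85 and Snord17, at 1.14 ± 0.20, 1.19 ± 0.23, 1.58 ± 0.27, 1.11 ± 0.22 and 1.59 ± 0.28, with edgeR adjusted p of 0.0022, 0.00319, 0.00342, 0.0044 and 0.00549. Without WT mock replicate 1, a library chosen from the members' own values, 44 members were called higher and 0 lower, against 6.69% and 4.73% of features. All 65 were then positive and the median was 1.48, a rise that is partly built in. Of the 22, 20 were called again, and Snord1a and Snord89 were not.

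Among RM cells of dataset B the palmitate difference passed for few members. With 3 of 65 called higher and 0 lower, against 5.08% of all features higher and 2.45% lower, the share of members called was near the background, although 59 of 65 fold changes were positive with a median of 0.54. Libraries did not overlap for 20 members, against 15.6% of features. The 3 members were Snord67 (1.20 ± 0.24), Snord1a (1.18 ± 0.28) and Snord17 (1.07 ± 0.27; log2 fold change ± SE, edgeR adjusted p = 0.0112, 0.0331 and 0.0417). Snord1a had 54.4, 94.6 and 105 CPM in RM palmitate, 48.8, 35.0 and 25.8 CPM in RM mock, 44.4, 52.3 and 48.2 CPM in WT palmitate, against 13.1, 19.3 and 20.2 CPM in WT mock libraries. RM palmitate was the highest group for Snord1a and WT mock the lowest. In RM palmitate replicate 1, 0 of 65 members were above the other libraries of the group. Without it 10 members were called, against 11.3% of features higher and 9.67% lower. Leaving out RM palmitate replicate 2, or RM mock replicate 2, gave 0 called. The share of all features called in those fits is not given, so that 0 is not read as a change of the members. Without RM palmitate replicate 3 there was 1 called higher, against 1.37% of features higher and 0.371% lower, and without RM mock replicate 3 also 1 higher, against 2.55% and 0.872%.

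RM palmitate against WT palmitate in dataset B gave 4 of 65 members higher and 0 lower, against 4.2% of all features higher and 3.62% lower. The share of members called was thus again near the background, although the median was 0.59 with 59 positive values. Libraries did not overlap for 23 members, against 14.7% of features. The 4 were Snord45b (0.61 ± 0.15), Snord19 (1.08 ± 0.26), Snord67 (0.91 ± 0.24) and Snord60 (0.68 ± 0.18; log2 fold change ± SE, edgeR adjusted p = 0.0276, 0.0334, 0.0348 and 0.0376). Snord19 had 133, 194 and 246 CPM in RM palmitate libraries, against 74.7, 84.8 and 111 CPM in WT palmitate libraries. The number called here also moved with single libraries, with 14 without RM palmitate replicate 1, against 10.2% of features higher and 9.39% lower. It was 0 without RM palmitate replicate 2 or 3 or WT palmitate replicate 1 or 2. The share of all features called in those fits is not given, so this 0 is likewise not read as a change of the members. With counts scaled to library totals the median of all features moved to -0.38 in RM palmitate against RM mock and to -0.36 in RM against WT palmitate, and the members' medians to 0.12 and 0.18, and in the first comparison 2 members were then called higher and 1 lower, against 3.47% and 16% of features.

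The difference between the palmitate effects of RM and WT cells in dataset B passed for 0 of 65 members with edgeR (14 at an unadjusted p below 0.05), and for 0% of all features. Counts at an unadjusted p, here and below, lack the share of all features at that threshold and are not read as an excess. DESeq2 called 4 members lower and 0 higher, against 0.704% of features lower and 1.32% higher. The members' median was -0.26 with all libraries, 0.00 without WT mock replicate 2 and -0.86 without WT mock replicate 1. In that last fit 0 were called again and 32 had an unadjusted p below 0.05. Without RM palmitate replicate 1, 3 members were called lower, against 3.51% of features lower and 3.58% higher, and without WT mock replicate 3 there were 3 lower, against 0.534% lower and 0.33% higher. The smallest p belonged to Snord92 (-1.86 ± 0.32), Snord45b (-1.004 ± 0.22) and Snord60 (-1.06 ± 0.26), with edgeR adjusted p of 0.0779, 0.0897 and 0.102. In the other direction they belonged to Snord90 (0.89 ± 0.48), Snord8 (1.64 ± 1.03) and Snord22 (0.93 ± 0.59), with 0.396, 0.483 and 0.489. The greater number of calls in WT than in RM cells is therefore not a difference that this test shows.

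No member passed the threshold in dataset A. With edgeR 0 of 66 members were called in WT palmitate against WT mock, RM palmitate against RM mock, RM mock against WT mock and RM palmitate against WT palmitate, where 0.344%, 0.477%, 3.73% and 3.43% of 11328 features were. In these comparisons 3, 10, 2 and 11 members had an unadjusted p below 0.05, given without the share of all features at that threshold and so not read as an excess. DESeq2 called 0, 0, 0 and 1, the last lower in RM palmitate, where 1.64% of features were called lower and 0.704% higher. The members moved together all the same: the median log2 fold change was 0.57 with 65 of 66 positive, -0.80 with 2 positive, 0.65 with 64 positive and -0.65 with 4 positive in these comparisons, while the medians of all features lay between -0.04 and 0.00. This was not particular to the members. The 37 H/ACA box snoRNAs tested had medians of 0.72, -0.35, 0.43 and -0.69, with 37, 5, 36 and 4 positive. The libraries of the groups did not overlap for 0 members higher and 0 lower in WT palmitate against WT mock (7.71% and 10.7% of features), 0 and 4 in RM palmitate against RM mock (6.97% and 14.0%), 1 and 0 in RM mock against WT mock (15.1% and 17.5%) and 0 and 2 in RM palmitate against WT palmitate (7.05% and 11.6%), so no share was above its background. For the difference between the palmitate effects of RM and WT the median was -1.28 with 0 positive, 0 called (19 at an unadjusted p below 0.05; 0 by DESeq2) and 0% of features called. Scaled to library totals, the median of all features moved to 0.39 in RM palmitate against WT palmitate and to 0.18 in RM mock against WT mock, and the members' medians to -0.21 and 0.77.

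These medians depended on single libraries. RM mock replicate 1, WT palmitate replicate 1 and WT mock replicate 3 each exceeded both other libraries of their group for all 65 members described. RM palmitate replicate 2, the shallowest library, held 2.97% of its counts in members, against 8.44% and 10.7% in replicates 1 and 3. It enters each comparison with RM palmitate, and medians without it are not given here. Without WT palmitate replicate 1 the medians were 0.03 in WT palmitate against WT mock, with 34 of 66 positive, and -0.10 in RM against WT palmitate. Without RM mock replicate 1 they were -0.26 in RM palmitate against RM mock and 0.22 in RM against WT mock, and without WT mock replicate 3 they were 0.999 in WT palmitate against WT mock and 1.14 in RM against WT mock. The median of the difference between the palmitate effects, -1.28 with all libraries, was -0.75 without WT palmitate replicate 1 (3 positive, 0 at an unadjusted p below 0.05), -0.90 without RM mock replicate 1 and -1.81 without WT mock replicate 3. Snord12 had 13096, 719 and 25422 CPM in RM palmitate, 68434, 29802 and 18144 CPM in RM mock, 32552, 23588 and 10419 CPM in WT palmitate, against 12864, 12216 and 24669 CPM in WT mock libraries. Snord45b had 79.1, 41.3 and 75.7 CPM in RM palmitate, 168, 119 and 79.4 CPM in RM mock, 241, 139.6 and 66.0 CPM in WT palmitate, against 69.6, 85.6 and 202 CPM in WT mock libraries. Both show the pattern, with the groups overlapping in most pairs. Without the filter on low counts edgeR called 8 members higher in WT palmitate, 3 lower in RM palmitate against RM mock, 8 higher in RM mock and 16 lower in RM against WT palmitate, with 0.811%, 0.477%, 1.1% and 2.63% of features called in those directions and 0.2%, 1.31%, 2.61% and 1.68% in the other. It called 9 lower for the difference between the palmitate effects, with 0.277% of features lower and 0.175% higher.

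By the smallest p, the members of WT palmitate against WT mock in dataset A were Snord64 (1.84 ± 0.67), Snord67 (0.87 ± 0.40) and Snord37 (1.02 ± 0.48), and Snord14e (-0.39 ± 0.46) was the one with a negative value, with edgeR adjusted p of 0.281, 0.418, 0.423 and 0.794. In RM palmitate against RM mock they were Snord91a (-1.35 ± 0.51), Snord14e (-1.18 ± 0.47) and Snord38a (-1.36 ± 0.58), and on the positive side Snord104 (0.06 ± 0.45) and Snord58b (0.03 ± 0.53), with 0.259, 0.278, 0.324, 0.975 and 0.994. RM against WT under mock had Snord17 (0.88 ± 0.39), Snord1b (1.40 ± 0.63) and Snord72 (0.85 ± 0.43) first, with adjusted p of 0.249, 0.25 and 0.297, and Snord35b (-0.19 ± 0.33) and Snord14a (-0.20 ± 0.43) as the negative ones, with 0.806 and 0.844. RM against WT under palmitate had Snord35b (-1.10 ± 0.35), Snord95 (-1.83 ± 0.64) and Snord37 (-1.37 ± 0.49), with 0.101, 0.13 and 0.137, and on the positive side Snord58b (0.66 ± 0.53), Snord104 (0.29 ± 0.45) and Snord68 (0.16 ± 0.67), with 0.564, 0.786 and 0.934. The palmitate effect of RM minus that of WT was most negative by p for Snord64 (-2.76 ± 0.91), Snord37 (-1.77 ± 0.68) and Snord1b (-2.28 ± 0.89), all at an adjusted p of 0.981. None of these differences passed. Snord64, at a few CPM, Snord95, with a 95.3% identical copy in Gm25296, and Snord1b, with near-identical copies in Snord1c and Gm24253, are uncertain.

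The datasets were compared in one fit of 24 libraries, as the effect in B minus that in A. For 66 members 0 were called in the palmitate effect of WT, 0 in that of RM, 0 in RM against WT under mock and 0 in RM against WT under palmitate (edgeR), where 0.189%, 0.00788%, 2.52% and 2.99% of features were called. At an unadjusted p below 0.05 there were 3, 17, 5 and 20 members, given without the share of all features and so not read as an excess. DESeq2 called 0, 0, 0 and 3 members, the last on the side of dataset B, where 2.18% of features were called on that side and 0.688% on the other. The medians were 0.11, 1.41, 0.28 and 1.32. They moved with single libraries. For WT palmitate the median ran from -0.36 without WT mock replicate 3 of dataset A to 0.81 without WT mock replicate 1 of dataset B. For RM palmitate it ran from 0.92 without RM mock replicate 1 of dataset A to 1.74 without its replicate 3. Under mock it ran from -0.09 without WT mock replicate 3 of dataset A to 0.81 without WT mock replicate 1 of dataset B. Under palmitate it ran from 0.76 without WT palmitate replicate 1 of dataset A to 1.68 without its replicate 3. The smallest p on the side of dataset B belonged to Snord104 (1.27 ± 0.53) for WT palmitate, Snord19 (1.64 ± 0.53) for RM palmitate, Snord35b (1.496 ± 0.56) under mock and Snord37 (2.68 ± 0.73) under palmitate, with edgeR adjusted p of 0.27, 0.203, 0.155 and 0.0567. A difference called in dataset B and not in dataset A is thus not shown to differ between them.

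**Figure D5:**
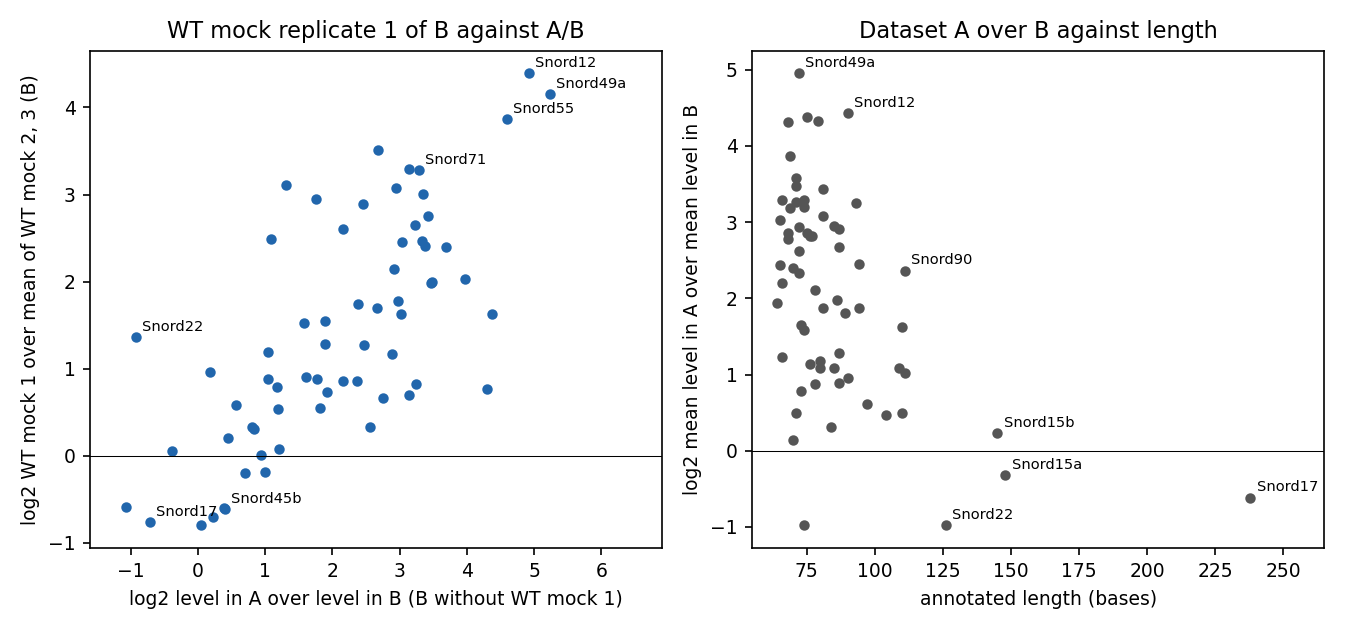
Left, excess of WT mock replicate 1 of dataset B over the mean of replicates 2 and 3 (log2) against the log2 ratio of mean level in dataset A over dataset B without that library, for 65 C/D box snoRNAs (r = 0.72, with WT mock replicates 2 and 3 in both measures); right, the log2 ratio of dataset A over dataset B with all libraries against annotated length in bases (r = -0.50). Members at the upper right of the left panel, Snord12, Snord49a and Snord55, are the most counted ones, and Snord17 and Snord15a, at 238 and 148 bases, lie below zero in the right panel.

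Dataset C has 1 library per group and gives no test. The members took 1.21% of counts in RM palmitate (95% Wilson interval 1.20 to 1.22), 0.630% in RM mock (0.625 to 0.635), 0.193% in WT palmitate (0.190 to 0.196) and 0.101% in WT mock (0.0987 to 0.103); intervals cover counting error only. Snord12 had 26560 counts in RM palmitate, 5421 in RM mock, 760 in WT palmitate and 347 in WT mock. Snord104 had 1679, 2521, 539 and 244 counts in the same groups, so RM palmitate stood highest for Snord12 and RM mock for Snord104. For each H/ACA count RM palmitate held 8.08 counts of the members, against 2.51 in RM mock, 2.99 in WT palmitate and 2.03 in WT mock. With 1 library, what is particular to it and what belongs to its group cannot be told apart. In WT palmitate against WT mock the median log2 ratio of CPM was 0.93 over 65 members and 0.27 over 12302 features, and 24 members were at least 2-fold higher, against 12.2% of features. In RM palmitate against RM mock it was 0.18 in both, with a range of -1.24 to 2.09 over members, and 8 members were at least 2-fold higher, against 4.95% of features. The ratios of RM over WT were high for nearly all features: 65 of 65 members were at least 2-fold higher under mock, against 89.6% of features, and 53 under palmitate, against 87.2%. The medians of RM over WT were 2.51 over members and 2.37 over all features under mock, and 1.77 and 2.28 under palmitate.

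Members of one host did not always share their values. Gas5, a noncoding host named for its accumulation in growth-arrested cells, carries Snord78, Snord80 and Snord47. Snord78 had 6.87, 10.5 and 6.98 CPM in RM palmitate, 6.93, 9.12 and 4.34 CPM in RM mock, 5.27, 6.24 and 6.84 CPM in WT palmitate, against 3.57, 2.28 and 2.67 CPM in WT mock libraries. Snord78 was called in WT palmitate (1.09 ± 0.29, edgeR adjusted p = 0.019), whereas Snord80 had -0.03 ± 0.68 and Snord47 0.08 ± 0.55 (adjusted p = 0.986 and 0.941). Without WT mock replicate 1 the 3 were 1.31 ± 0.33, 1.45 ± 0.29 and 1.19 ± 0.21, each past the threshold (adjusted p = 0.0172, 0.0124 and 0.00239). In the Snord1 group of 1810032O08Rik, Snord1a had 1.46 ± 0.28, Snord1b -0.46 ± 0.85 and Snord1c -0.07 ± 0.80 with all libraries, and 1.30 ± 0.31, 1.54 ± 0.43 and 1.81 ± 0.42 without that library. Snord1b had 44.9, 46.5 and 83.8 CPM in RM palmitate, 41.4, 41.4 and 16.8 CPM in RM mock, 33.1, 41.3 and 46.2 CPM in WT palmitate, against 137, 14.3 and 13.5 CPM in WT mock libraries. WT mock replicate 1 was the highest library for Snord1b and the lowest for Snord1a, and the values of these 2 groups lay closer together without it. Of the Rps3 pair, Snord15a (1.35 ± 0.18) and Snord15b (1.34 ± 0.33), 64.5% identical, both passed with all libraries (edgeR adjusted p = 0.000262 and 0.0253). Without WT mock replicate 1 they lay farther apart, at 1.38 ± 0.20 and 1.75 ± 0.31 (adjusted p = 0.00074 and 0.00783).

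Hosts were tested beside their snoRNAs. In dataset B, 21 of the 26 members called in WT palmitate have a host in the tables, and for 5 of them the host was also called higher; in RM mock against WT mock these numbers were 18 and 2. The median of member minus host was 0.63 and 0.76 on the log2 scale over 55 pairs. Over the 41 hosts, 6 were called higher and 0 lower in WT palmitate against WT mock, where 9.43% of all features were higher, and 3 and 0 in RM mock against WT mock, where 7.88% were higher, with medians of -0.01 and 0.03. In RM palmitate against RM mock 6 were higher and 1 lower (5.08% and 2.45% of features; median 0.12), and in RM palmitate against WT palmitate 5 and 1 (4.2% and 3.62%; median 0.16). The hosts that rose in WT palmitate included Rabggtb (0.94 ± 0.27), Gnl3 (0.78 ± 0.12), Tsr1 (0.68 ± 0.14) and Wdr43 (0.62 ± 0.12; log2 fold change ± SE, edgeR adjusted p = 0.0357, 0.000693, 0.00445 and 0.00388). Because 24 members are contained in a transcript of their host, and counting of overlapping features is not described, reads of an unspliced host and of the snoRNA cannot be told apart.

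Of the mRNAs of C/D core proteins, 1 of 4 tested rose in WT palmitate of dataset B (Nop56, 0.50 ± 0.13, edgeR adjusted p = 0.0173) and 0 fell, with a median of -0.01. Nop56 is also the host of Snord110 and Snord57, and Snord57 lies within a Nop56 transcript. The Nop56 count may therefore hold snoRNA reads. Of 10 genes of particle assembly and trafficking, 1 rose (Nolc1, 0.53 ± 0.14, adjusted p = 0.0184) and 0 fell, with a median of 0.10. In RM mock against WT mock 0 of these 4 and 0 of these 10 passed. Of all features 9.43% rose and 6.12% fell in WT palmitate, so 1 of 10 was near that share. In RM mock against WT mock 7.88% were higher and 6.24% lower. Of the C/D RNAs of pre-rRNA processing, 4 of 7 listed are in the tables: Snord13 and Snord14a rose in WT palmitate, Snord14e and Snord22 did not pass, and in RM mock only Snord14a passed. Of the Snrpn-Ube3a imprinted C/D RNAs, Snord64 and Snord107 were in the tables, at up to 4.90 and 1.36 CPM in dataset A, and were below the filter in dataset B; both are named here, after their values were seen, to account for all members. Of the other large class, the H/ACA box snoRNAs, which guide pseudouridylation, 32 of 37 rose in WT palmitate of dataset B and 28 of 37 were higher in RM mock. This compares with 26 and 22 of 65 C/D members and with 9.43% and 7.88% of all features. The H/ACA medians were 1.60 and 1.34. The difference between the classes was not tested.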

How the data were processed

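RNA precipitated with PKR was sequenced in 28 libraries (12 in dataset A, 12 in B, 4 in C). The deposited values used here are raw counts per feature, per the file headers, on mm9. CASAVA 1.7.0 and 1.8.2 and Novoalign are named in the submitters' processing notes; no source used here names the counting tool or its use of strand. From these, 32 count columns were used and 52 other value columns were not. GENCODE M21 supplied names (25773 of 29777 Ensembl identifiers matched) and sequences only; near-identical copies and overlapping or antisense features cannot be told apart. Strands were summed in dataset C.

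Counts of datasets A and B were fitted with edgeR 4.0.16 (limma 3.58.1, R 4.3.3): quasi-likelihood test, robust, TMM scaling, filterByExpr, all 12 libraries of a dataset together, two-sided, Benjamini-Hochberg adjustment over all features, threshold 0.05. One fit of 24 libraries gave dataset B minus A. DESeq2 1.42.0, other scalings, no filter, a replicate block, only the groups compared and leaving out libraries were the alternatives. CPM of datasets A and B use library totals times TMM factors set within each dataset, so levels set across datasets are not on one scale; CPM of dataset C use totals. Shares use raw counts. Some host names and a sequence are not reported here. Wilson intervals at 95% cover counting error only. Python 3.11.15, pandas 2.3.3, scipy 1.17.1, matplotlib 3.10.9, biopython 1.88 and blastn 2.17.0 were also used. The fit was tested on simulated counts, drawn independently with the same dispersion for every feature. That test therefore does not cover the joint shifts of the members between replicate libraries.

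The members and lists were chosen with earlier results of these data known. Named in each comparison were all members past the threshold, or the 12 with the smallest p where more passed, or the 3 with the smallest p in each direction where none passed, plus the 10 most counted; members under a mean of 10 counts in the higher group were counted, not named. Every pair of replicate libraries differed beyond counting error (chi-square per degree of freedom 4.85 to 181.8 over 24 pairs). Deviations of same-numbered libraries correlated at -0.22 to 0.32 in A and -0.13 to 0.27 in B (18 pairs each, 4 over 0.1), so numbers were not taken to pair libraries.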

Additional observations from a re-analysis of the deposited data

How the results depend on the processing

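Counts of members called differed from those above under these settings. The share of all features called also differed between settings, so a count without that share beside it is not read as a change of the members. Without the filter on low counts dataset A gave 8 (WT palmitate), 3 (RM palmitate), 8 (RM against WT, mock), 16 (RM against WT, palmitate) and 9 (palmitate effect of RM minus WT), against 0 in each. In dataset A, RM against WT under mock gave 1 with total counts and 1 with only the groups compared, and under palmitate 1 with DESeq2. In dataset B, RM palmitate against mock (3 called) gave 6 with DESeq2, 5 with only the groups compared and 0 without replicates 2 and 3 of RM palmitate. RM against WT under palmitate (4 called) gave 1 with total counts, 2 without the filter, 2 with only the groups compared and 0 without those replicates. The palmitate effect of RM minus WT (0 called) gave 4 with DESeq2, 4 with total counts, 4 without the filter and 2 with the replicate block. Otherwise the replicate block left 0 called in dataset A and gave 20, 4, 19 and 4 in dataset B, in the order WT palmitate, RM palmitate, RM against WT under mock and under palmitate; it changed no other count by over 1.5 times. Dataset B minus A, RM against WT under palmitate, gave 3 with DESeq2 and 1 with total counts. The cause was not tested.

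Leaving out 1 library gave 14 to 46 (WT palmitate), 0 to 10 (RM palmitate), 16 to 44 (RM against WT, mock), 0 to 14 (RM against WT, palmitate) and 0 to 3 (RM minus WT) in dataset B, 0 to 1 for RM against WT under palmitate in dataset A, and 0 to 1 (mock) and 0 to 2 (palmitate) for RM against WT in B minus A. The background moved too: for RM palmitate of dataset B, 1.37% of all features were called higher without RM palmitate replicate 3 and 11.3% without its replicate 1. The ratio of summed shares in dataset A, RM against WT under mock, was 1.93 and became 1.16 over H/ACA counts. Its leave-one-out ranges in A were 0.946 to 1.66 (WT palmitate), 0.379 to 0.636 (RM palmitate), 1.65 to 2.44 (mock) and 0.558 to 0.999 (palmitate), and in B 0.695 to 2.91, 0.841 to 1.04, 0.803 to 3.36 and 0.976 to 1.26. Of the members named for their small p, those whose value changed sign when 1 library was left out, none past the threshold with all libraries, were in dataset A Snord14e (-0.59 to 0.016, WT palmitate), Snord104 (-0.39 to 0.35) and Snord58b (-0.60 to 0.46, and -0.020 without the filter; RM palmitate), Snord35b (-0.54 to 0.11) and Snord14a (-0.70 to 0.27; mock), Snord104 (-0.19 to 0.74) and Snord68 (-0.60 to 0.72; palmitate). In dataset B Snord8 ran from -0.10 to 2.03 (RM minus WT). Over all 65 members of dataset B, leaving out WT mock replicate 1 changed the sign of 17 in WT palmitate (10 then past the threshold), of 11 in RM against WT under mock (3 then past it) and of 24 in RM minus WT (0 then past it). In B minus A they were Snord99 (-1.78 to 0.37), Snord1b (-1.99 to 0.43), Snord73a (-1.54 to 0.24), Snord92 (-0.40 to 0.23), Snord8 (-2.05 to 0.077) and Snord57 (-0.72 to 0.46). With 3 libraries a group, and RM palmitate replicate 2 of dataset A at 254762 counts, small differences were not detectable. In dataset A larger ones, such as that of Snord95 in RM against WT under palmitate, did not pass with all libraries either.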
